A study of Mus musculus with 7 samples.

Results

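PMX205 is a small cyclic peptide that blocks C5aR1, the receptor for the complement fragment C5a. The comparison described here asks what the drug did to nuclear RNA in the hippocampus of mice without amyloid pathology: 6 wells of nuclei from WT mice given PMX205 (WT-PMX) against 6 wells from WT mice given water (WT-veh). These 12 wells are hippocampal tissue of 12 mice, 3 females (F1 to F3) and 3 males (M1 to M3) per group, out of 24 single-nucleus wells and 48 wells in the whole series. They hold 24176 of the 45138 nuclei that passed the filters, 12179 on water and 11997 on PMX205. Wells were chosen by genotype and preparation in the deposited sample sheet. A nucleus was kept with more than 300 and fewer than 50000 transcripts, more than 400 genes and under 1% mitochondrial transcripts. Neurons were then taken by a rule: at least 2000 transcripts and at least 3 transcripts in all of *Slc17a7*, *Slc17a6*, *Gad1* and *Gad2*, the glutamate transporter and GABA synthesis genes. That rule gave 3363 WT nuclei of 6607 in the series, 1549 on water and 1814 on PMX205. They are called neurons below, but the rule takes only the deeper neuronal nuclei: the neuron markers summed to 4656 to 5761 CPM in all nuclei of the WT wells and to 4832 to 5877 CPM in these, so neurons are also among the nuclei outside the rule.

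The WT mice are offspring without the transgene from crosses of Arctic48 with C57BL6/J mice, on the C57BL6/J background. Arctic48 mice carry a human *APP* transgene with the Indiana, Swedish and Arctic mutations. Their PMX205 (Arc-PMX) and water (Arc-veh) wells, 6 of each, serve the label check and the comparisons by genotype. They also entered the gene fit, and so share in which genes were tested and in the spread behind every edgeR p-value and interval of the WT comparison. A fit of the 12 WT wells alone tested 15114 genes in all nuclei and 10639 in neurons, and called 0 in either. PMX205 was given at 20 µg/ml in MilliQ drinking water, vehicle was the same water, and all mice were housed singly and perfused at 10 months of age. The labels give 12 weeks of treatment and name Actinomycin D and Triptolide in the perfusion buffer. The paper gives a somewhat shorter span for this age group and names such inhibitors only for the microglia preparation. The receptor is intact in all groups, so the comparison is of a drug and not of a deletion, and exposure depended on how much each mouse drank. Water wells lay in rows A and B of the barcoding plate and PMX205 wells in rows C and D, so treatment and plate row cannot be told apart.

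Complement is a cascade of plasma and tissue proteins. C1q, made of C1qa, C1qb and C1qc chains, starts the classical pathway, C4 and C3 are cleaved in turn, and cleavage of C5 (the product of *Hc* in mice) releases C5a, which attracts and activates cells that carry C5aR1. In brain, C5aR1 is best known on microglia. Astrocytes make much of the C4 and C3 found there, microglia make most of the C1q, and neurons express membrane regulators such as CSMD1. In reactive astrocytes, GFAP, an intermediate filament of the cytoskeleton, and *C4b* typically increase.

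Labels and depth were checked first. *App* lay between 493 and 567 CPM (transcripts scaled to a common total per well) in the 12 WT wells and between 603 and 840 CPM in the 12 Arctic wells, so no WT well reached the Arctic range. *Xist*, expressed from the inactive X chromosome, was at 419 to 909 CPM in female WT wells and at 1.56 to 7.40 CPM in male WT wells, and the Y-linked *Ddx3y* was at 0.151 to 0.683 CPM in females and 23.7 to 33.0 CPM in males. Summed over kept nuclei, a WT-veh well held 6088008 to 24467429 transcripts and a WT-PMX well 6533742 to 31995222. Transcript counts of a gene given for the 2 groups below are raw counts over a group's wells, not scaled for their size. The median kept WT nucleus had 4381 transcripts and the median WT neuron 13776. Barcodes are shared between sublibraries: 2360 of the 21628 distinct WT barcodes were kept in more than 1 of the 7 sublibraries, and each occurrence was counted as its own nucleus. Doublet scores marked 775 WT nuclei (3.21%), with 7.39% in WT-PMX M2 as the highest well.

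No difference was detected in how many nuclei were kept or what share of them met the neuron rule, which is not the share of neurons. Kept nuclei per well ran from 1332 through a median of 2116 to 2745 on water and from 1492 through 1812 to 3356 on PMX205, where M2 stood apart. Means were 2030 ± 591 and 2000 ± 684 (SD, n = 6 wells each; exact permutation p = 0.942, two-sided). Between 7.08 and 21.0% of nuclei met the neuron rule in WT-veh wells (median 9.53%) and between 4.52 and 24.1% in WT-PMX wells (median 11.2%), so the ranges overlapped almost fully. The means were 11.9 ± 5.67% and 13.9 ± 7.57% (exact permutation p = 0.615, n = 6 each). Median transcripts per nucleus averaged 4801 ± 1485 on water and 4585 ± 1041 on PMX205 (exact permutation p = 0.786, n = 6 each), and mitochondrial transcripts made up 0.0318 ± 0.0121% and 0.0330 ± 0.00708% (exact permutation p = 0.835, n = 6 each). All 4 tests had an adjusted p of 0.942, over these 4 values. The smallest p that 6 wells against 6 can give is 0.00216.

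**Figure D1:**
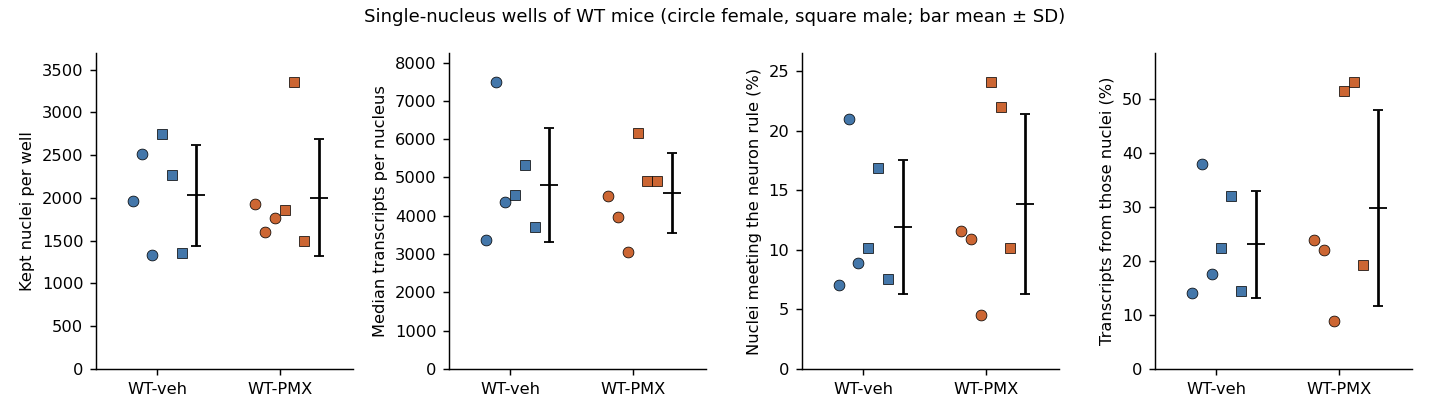
Kept nuclei, median transcripts per nucleus, percent of nuclei that met the neuron rule and percent of transcripts that came from those nuclei, for each WT well (circles females, squares males, bars mean ± SD of 6 wells). WT-PMX M1 and M2, with 51.5 and 53.2% of transcripts from neurons, and WT-veh F2, with 38.0%, are the highest wells of their groups in the last panel.

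Nuclei that met the neuron rule weighed more in some wells than in others, while neuron markers in all nuclei did not follow this: they were at 4708 and 4747 CPM in WT-PMX M1 and M2 and at 4770 CPM in WT-PMX F3. Nuclei that met the neuron rule gave 14.0 to 38.0% of a WT-veh well's transcripts (median 20.0%) and 8.94 to 53.2% of a WT-PMX well's (median 22.9%). Among them *Gad1* and *Gad2* outnumbered *Slc17a7* and *Slc17a6* in 39.1 and 30.0% of those of WT-PMX M1 and M2, against up to 72.5% in the other WT-PMX wells and 46.4 to 72.7% in WT-veh wells. These are the genes of the rule itself, and the share was low where these nuclei were deep (median 17768 and 21436 transcripts in M1 and M2, against 5123 in F3, at 72.5%), so it is no independent measure of inhibitory neurons. Because deep nuclei meet a rule on counts more easily, nuclei with at least 2000 transcripts were also thinned to 2000 each, which left out 3426 nuclei on water and 3938 on PMX205. At that equal depth 2.20 ± 0.411% of WT-veh and 2.38 ± 0.588% of WT-PMX nuclei still held 3 marker transcripts (exact permutation p = 0.537, n = 6 each; adjusted p = 0.608 over 7 added values). Without thinning the shares of the same nuclei ran from 10.6 to 26.9% and from 6.76 to 35.1%.

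Across genes, no transcript passed the test. Of 16540 genes tested in the sums over all nuclei, 0 had an adjusted p under 0.05 (0% called), and of 12744 genes tested in the sums over neurons 0 did (0% called). The 24 wells entered 1 edgeR quasi-likelihood fit with terms for group and sex, and p-values were adjusted by Benjamini-Hochberg. The smallest adjusted p was 0.994 in all nuclei. At an unadjusted p under 0.05 there were 648 genes in all nuclei (3.92%), 405 higher on PMX205 (2.45%) and 243 lower (1.47%), and 317 genes in neurons (2.49%), 165 higher (1.29%) and 152 lower (1.19%). DESeq2 also called 0 genes in all nuclei, with 399 higher and 251 lower at an unadjusted p under 0.05. One setting gave another count: with no filter on low counts edgeR called 22 of 34675 genes in all nuclei and 22 of 30765 in neurons, 14 higher and 8 lower in each. Of these genes, 21 and 22 were also tested with the filter and not called there. The same fit did call genes for other contrasts. Between Arctic and WT mice on water it called 647 genes in all nuclei (3.91%), 574 higher and 73 lower in Arctic, and between male and female WT mice 7 genes (0.0423%). In neurons it called 0 genes between Arctic and WT mice on water (0%) and 7 between the sexes (0.0549%).

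**Figure D2:**
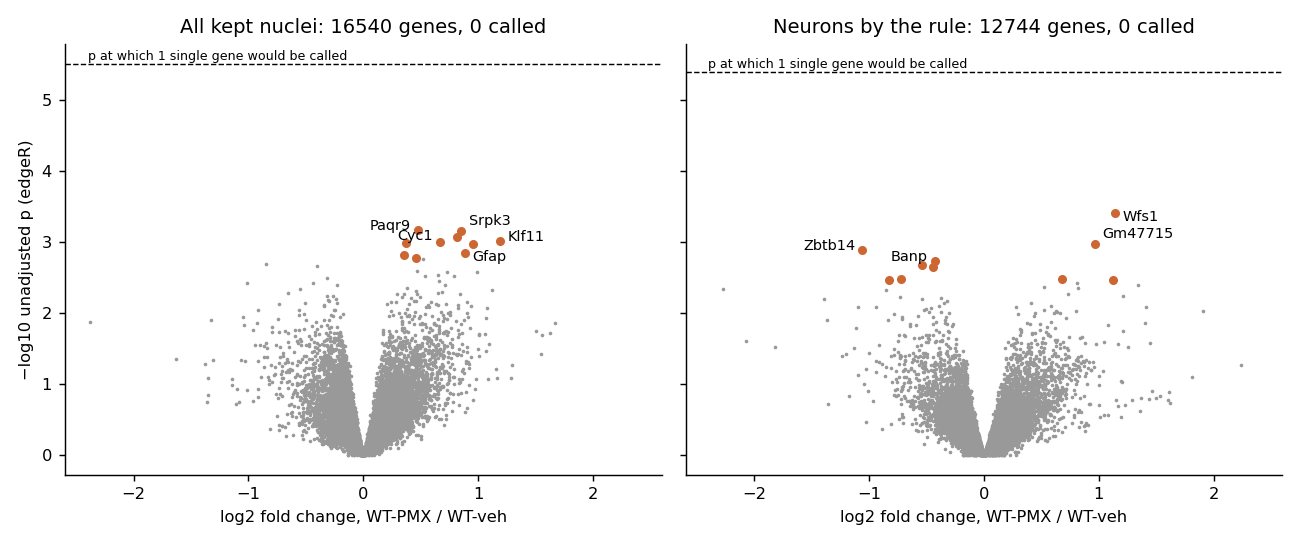
Log2 fold change, WT-PMX over WT-veh, against −log10 of the unadjusted p of edgeR's quasi-likelihood test, for 16540 genes in all nuclei and 12744 in neurons. Coloured points are the 10 genes with the smallest p in each sum, and no point in either panel reaches the dashed line, the p at which a single gene would have been called.

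The absence of calls came with narrow intervals for expressed genes. The median half-width of the 95% interval was 0.33 on the log2 scale in all nuclei, a 1.26-fold change, and 0.19, a 1.14-fold change, for the 2755 genes whose average log2 CPM was above 6. For 14984 of 16540 genes (90.6%) the whole interval lay within 1 log2 unit of no change. In neurons the median half-width was 0.40 (1.32-fold), and 11039 of 12744 intervals (86.6%) lay within 1 log2 unit. Fold changes beyond 1 log2 unit in either direction were fitted for 40 genes in all nuclei and 56 in neurons. Intervals were built from the fold change and the F statistic, and need not match the p of the test. *Clu* in neurons had a log2 fold change of +0.10 with an SE of 0.15, but an unadjusted p of 0.987 by edgeR.

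Astrocyte genes had positive values in all nuclei, although none passed the adjusted test. All 8 astrocyte markers had a positive log2 fold change (median +0.53, against +0.01 over all genes tested), and 6 had an unadjusted p under 0.05, where 2.45% of all genes were higher at that p. With the 3 wells left out in which nuclei of the neuron rule gave the largest shares of transcripts (WT-PMX M1 and M2, WT-veh F2) the median was +0.39, and without WT-veh F3 and M3 it was +0.33. An earlier look at these data had described F3 and M3 as low in glia. Here F3 had the lowest sums of astrocyte, oligodendrocyte and OPC markers among the WT-veh wells (599, 344 and 174 CPM), whereas M3 was low for oligodendrocyte markers (446 CPM) and the highest for astrocyte and microglia markers (823 and 87.2 CPM). These sets are called the 3 wells and the 2 wells below, where the median of a list is also given without a set if it then changed sign or by over 1.5 times, and by more than 0.05.

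*Gfap* (chr11:102887336-102900912, mm10) lay at 2.86 CPM in the lowest, 5.11 in the median and 6.78 in the highest WT-veh well, and at 4.91, 10.2 and 11.5 CPM in WT-PMX wells. In 5 of 6 WT-PMX wells it was above every WT-veh well, and WT-PMX M3, at 4.91 CPM, was the exception. Means were 5.03 ± 1.27 and 9.48 ± 2.35 CPM (SD, n = 6 wells each). The fitted log2 fold change was +0.89 ± 0.25 (SE; 95% interval 0.38 to 1.40), with an unadjusted p of 0.0014 and an adjusted p of 0.994. It was +0.99 in females and +0.79 in males, and between +0.78 and +0.997 whichever WT well was left out. Without a filter on low counts the fold change was +0.90, the SE 0.15 and the adjusted p 1.56e-05, and under every other alternative the adjusted p was 0.786 or more. In Arctic mice the log2 fold change on PMX205 was +0.03, from a level that was already 3.54 log2 units above WT on water.

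*Aqp4*, the water channel of astrocyte endfeet, was at 4.03, 7.78 and 9.22 CPM in the lowest, median and highest WT-veh wells and at 8.98, 10.8 and 17.5 CPM in WT-PMX wells, with an overlap at the edge of the groups (+0.73 ± 0.22, unadjusted p = 0.0026). *Slc1a2*, the main glutamate transporter, lay at 428 to 586 CPM on water and 552 to 759 CPM on PMX205 (+0.30 ± 0.10, unadjusted p = 0.0054). The gap junction gene *Gja1* (+0.58), the transcription factor *Sox9* (+0.55) and the folate enzyme *Aldh1l1* (+0.39) had unadjusted p-values of 0.024, 0.022 and 0.019. *Aldoc*, a glycolytic enzyme (+0.52, unadjusted p = 0.064), and *Slc1a3*, the second glutamate transporter (+0.10, unadjusted p = 0.56), completed the list. Summed, the 8 markers made up 599 to 823 CPM in WT-veh wells and 731 to 999 CPM in WT-PMX wells. Genes outside the list were looked up after their values had been seen: *Gldc*, of glycine breakdown, was at +0.52 ± 0.15 (unadjusted p = 0.0017), *Phgdh*, of serine synthesis, at +0.79 ± 0.24 (unadjusted p = 0.0030) and the lipid carrier *Apoe* at +0.74 ± 0.29 (unadjusted p = 0.018). In sums over a well, more astrocyte nuclei and more astrocyte RNA per nucleus cannot be told apart.

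**Figure D3:**
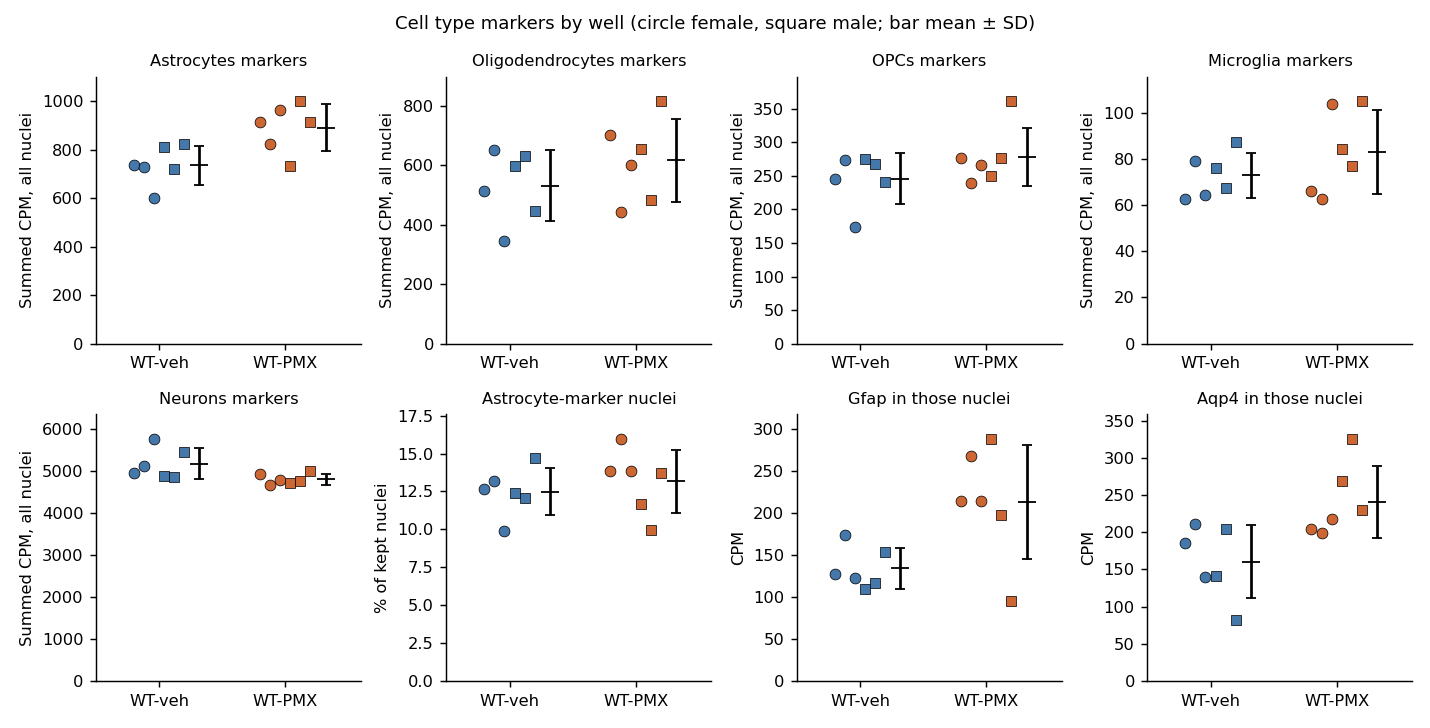
Summed CPM of astrocyte, oligodendrocyte, OPC, microglia and neuron markers in each WT well, and the percent of nuclei that carry astrocyte markers with the CPM of *Gfap* and *Aqp4* within those nuclei (circles females, squares males, bars mean ± SD of 6 wells). In the *Gfap* panel 5 of 6 WT-PMX wells sit above all WT-veh wells.

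To look at both quantities apart, nuclei with at least 3 transcripts of *Slc1a2*, *Slc1a3*, *Gja1*, *Aldoc*, *Aldh1l1* and *Sox9* that made up at least 0.5% of the nucleus's transcripts were counted, a step added after the values above had been seen. *Gfap* and *Aqp4* were not used to choose them. There were 1525 such nuclei on water and 1523 on PMX205, 12.5 ± 1.56% and 13.2 ± 2.08% of a well's nuclei (exact permutation p = 0.532, n = 6 each; adjusted p = 0.608). They held 68.8 to 89.6% of a well's *Gfap* transcripts. Within them *Gfap* averaged 134 ± 24.7 CPM on water and 213 ± 67.4 CPM on PMX205 (exact permutation p = 0.0260, n = 6 each; adjusted p = 0.0909), with 5 of 6 WT-PMX wells above the highest WT-veh well. *Aqp4* averaged 160 ± 48.8 and 241 ± 48.4 CPM (exact permutation p = 0.0130, n = 6 each; adjusted p = 0.0909). *C4b* averaged 161 ± 26.9 and 211 ± 121 CPM (exact permutation p = 0.450, n = 6 each; adjusted p = 0.608), with 449 CPM in WT-PMX M1. The median depth of these nuclei was 1320 ± 549 transcripts on water and 1889 ± 949 on PMX205 (exact permutation p = 0.245, n = 6 each; adjusted p = 0.571), and its part in the *Gfap* and *Aqp4* values was not tested. None of these values passed after adjustment over the 7 added ones. *Gfap* and *Aqp4* were looked at here because of their values in the same wells, and largely the same transcripts were counted. Their p-values within these nuclei are therefore no further support.

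The target of the drug was barely seen in nuclei. *C5ar1*, the receptor gene, gave 14 transcripts in 14 of 24176 WT nuclei (0.0579%, 95% exact binomial interval 0.0317 to 0.0971%, counting error only): 5 of 12179 on water (0.0411%, 0.0133 to 0.0958%) in 3 wells and 9 of 11997 on PMX205 (0.0750%, 0.0343 to 0.142%) in 4 wells. Of the 9 on PMX205, 5 came from WT-PMX F1. These intervals leave out the spread between mice and do not compare the groups. Among the 3363 neurons 2 had a transcript (0.0595%, 95% exact binomial interval 0.00720 to 0.215%), at 13776 transcripts per median neuron against 4381 over all nuclei. That is 2 of 54851445 transcripts there and 12 of 110822981 in the nuclei outside the rule, which also hold neurons. These counts do not compare neurons with other cells, and how much of them is background cannot be told. *C5ar2*, the second C5a receptor, had 17 transcripts on water and 19 on PMX205, and *Hc*, the gene for C5 itself, 17 and 15. All 3 genes were too low to be tested. *C3ar1*, the receptor for C3a, was tested at 22 and 24 transcripts and had a log2 fold change of −0.04 ± 0.48 (unadjusted p = 0.93).

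Of 30 complement and C5a receptor genes, 22 could be tested and 0 were called. Positive fold changes outnumbered negative ones, 15 to 7, where 8573 of all 16540 genes were positive, with a median of +0.18, or +0.10 without WT-PMX M1, M2 and WT-veh F2 and +0.08 without WT-veh F3 and M3. At an unadjusted p under 0.05, 3 were higher (*Clu*, *C1qa* and *C4b*) and 1 was lower (*Cd55*), against 2.45% and 1.47% of all genes.

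*C4b*, the C4 gene of mouse brain, lay at 3.46, 7.34 and 10.7 CPM in the lowest, median and highest WT-veh wells and at 7.90, 10.8 and 17.9 CPM in WT-PMX wells. The groups overlapped in 3 WT-PMX wells, and the log2 fold change was +0.68 ± 0.31 (95% interval 0.04 to 1.31, unadjusted p = 0.038, adjusted p = 0.0057 only without the filter on low counts). It was +0.13 in females and +1.02 in males, a difference with an unadjusted p of 0.13. *C3*, whose cleavage lies upstream of C5, rested on 16 transcripts on water and 41 on PMX205 (+1.29 ± 0.64, 95% interval −0.03 to 2.62, unadjusted p = 0.054), and leaving out single wells moved it between +0.39 and +1.64. WT-PMX M2, at 0.843 CPM, was its highest well, and in female wells alone the log2 fold change of *C3* was −0.03.

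The C1q chains had 24 to 46 (*C1qa*), 46 to 77 (*C1qb*) and 41 to 59 (*C1qc*) transcripts on water and PMX205, with log2 fold changes of +0.82 ± 0.37, +0.64 ± 0.40 and +0.30 ± 0.39 and unadjusted p-values of 0.037, 0.12 and 0.45. With single wells left out *C1qa* ran from +0.60 to +1.004, *C1qb* from +0.46 to +1.04 and *C1qc* from +0.04 to +0.48. In female wells alone *C1qc* was at −0.60. *C1qa* was above every WT-veh well in 5 of 6 WT-PMX wells. *Clu*, a secreted chaperone that also inhibits the terminal complement complex, lay at 9.64, 14.3 and 20.5 CPM on water and 19.2, 20.6 and 28.5 CPM on PMX205 (+0.57 ± 0.20, unadjusted p = 0.0082). *Cd55*, which speeds the decay of C3 convertases, had the smallest value of the list (−0.35 ± 0.17, unadjusted p = 0.047).

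*Csmd1*, the complement regulator of neurons, was the best measured of the named complement genes. It lay at 5291 to 7656 CPM in WT-veh wells and at 5276 to 6239 CPM in WT-PMX wells, and its log2 fold change of −0.14 ± 0.09 had a 95% interval of −0.33 to 0.05. In the neuron sums it was −0.09 ± 0.12 (95% interval −0.33 to 0.15). Single left-out wells moved *Csmd1* from −0.19 to −0.06 in all nuclei and from −0.14 to −0.02 in neurons. *C4b* in neurons rested on 30 and 54 transcripts (+0.61 ± 0.79, and +0.12 without WT-PMX M2). There, 12 of the 30 genes were tested, 8 were positive and 4 negative, and 0 had an unadjusted p under 0.05. The largest and smallest of them, *Itgam* (+1.35 ± 1.13) and *Cd55* (−0.24 ± 0.26), had intervals that included no change. *Itgam* ran from +0.68 to +2.08 and *Cd55* from −0.37 to −0.06 with single wells left out.

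**Figure D4:**
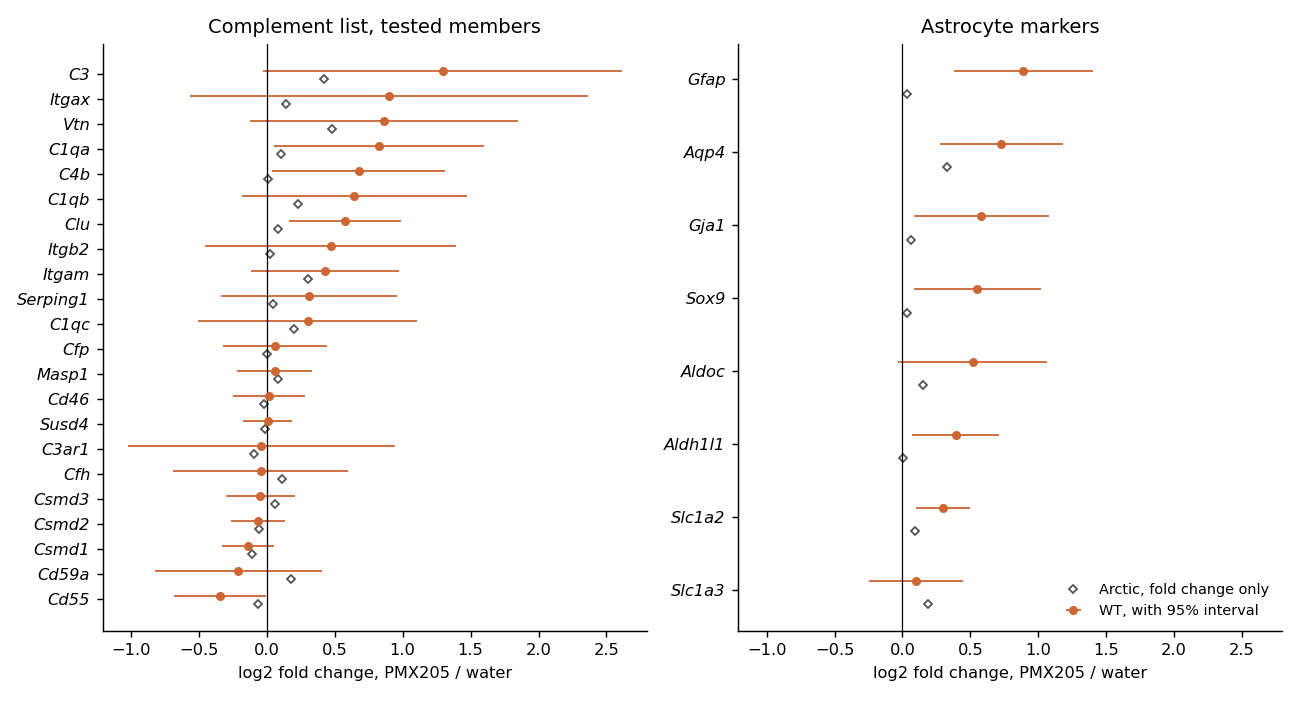
Log2 fold change of WT-PMX over WT-veh with its 95% interval for the 22 tested complement genes and the 8 astrocyte markers, all nuclei, with the fold change of Arc-PMX over Arc-veh as diamonds. The 8 astrocyte markers are all to the right of 0 in WT mice, with a median of +0.53, and their median in Arctic mice was +0.08.

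Genes that act downstream of C5aR1 (Gi and arrestin proteins, PI3 kinase, MAP kinases, NF-κB and adenylyl cyclase) were flat and well measured. All 20 were tested in all nuclei, 11 had positive and 9 negative values, 0 had an unadjusted p under 0.05, and the median was +0.03. Values ran from −0.13 ± 0.10 for *Map2k2*, a MAP kinase kinase, to +0.19 ± 0.12 for *Adcy1*, an adenylyl cyclase, and 19 of 20 intervals lay within 1 log2 unit. In neurons 18 were tested (median +0.04, or −0.03 without the 3 wells), from −0.11 ± 0.20 for *Gnai2* to +0.76 ± 0.80 for *Pik3r5*, which rested on 21 and 39 transcripts. These are transcript levels and say nothing of phosphorylation, through which the pathway mainly acts.

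Microglial genes had positive values at low counts. All 8 microglia markers were above 0 (median +0.26), with an unadjusted p under 0.05 for *Tmem119*, a marker of resident microglia (+0.91 ± 0.33, unadjusted p = 0.011, 54 and 114 transcripts), and *C1qa*. Their summed level was 62.6 to 87.2 CPM in WT-veh wells and 62.8 to 105 CPM in WT-PMX wells. Of 12 homeostatic microglial genes 10 were positive (median +0.19, or +0.32 without the 3 wells) and *P2ry13* had the smallest value (−0.14 ± 0.50). Of 18 genes of the microglial response to plaques 16 were tested and 14 were positive (median +0.27, or +0.16 without either set of wells named above), from *Tyrobp*, a signalling adaptor (+0.92 ± 0.47, 14 and 30 transcripts, and +0.56 to +1.20 with single wells left out), to *Gpnmb* (−0.13 ± 0.27). *Apoe* was the only one of them with an unadjusted p under 0.05. As in the complement list, members low in WT wells could be tested because of the Arctic wells.

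Gene lists of reactive astrocytes were thinly detected apart from *Gfap*. Here too members low in WT wells could be tested because of the Arctic wells. Of 14 pan-reactive genes 9 were tested, 7 positive and 2 negative, with a median of +0.51, or +0.15 without WT-PMX M1, M2 and WT-veh F2 and +0.23 without WT-veh F3 and M3. Besides *Gfap*, *S1pr3*, a sphingosine phosphate receptor, had an unadjusted p under 0.05 (+0.60 ± 0.28, unadjusted p = 0.041), and *Cp*, ceruloplasmin, had the smallest value (−0.15 ± 0.25). Of 23 A1 and A2 genes, named for injury by inflammation and by ischemia, 15 were tested with 8 positive and 7 negative values (median +0.20, or +0.01 without WT-PMX M1, M2 and WT-veh F2 and 0.00 without WT-veh F3 and M3). *Gbp2*, a guanylate-binding protein, had the largest value on 6 and 22 transcripts (+1.67 ± 0.63, unadjusted p = 0.014), and *Srgn* the smallest (−0.82 ± 0.48). Interferon and antigen presentation genes were centred on 0 (14 tested, 5 positive, 9 negative, median −0.01, or −0.06 without the 2 wells), between *H2-D1*, a class I gene (+0.78 ± 0.35, unadjusted p = 0.036), and *Usp18* (−1.14 ± 0.67). With single wells left out *H2-D1* ran from +0.45 to +0.93 and *Usp18* from −1.80 to −0.70.

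The values of other glial and vascular markers depended on which wells were used. The 8 oligodendrocyte markers were all positive (median +0.29), but the median was +0.53 without the 3 wells, where that of astrocyte markers was +0.39, and +0.06 without the 2 wells, and only *Mag*, of the myelin sheath, had an unadjusted p under 0.05 (+0.44 ± 0.20, unadjusted p = 0.033). Summed levels were 344 to 652 CPM on water and 441 to 815 CPM on PMX205. Of 8 OPC markers 7 were positive (median +0.14, or +0.29 without the 3 wells and +0.04 without the 2 wells), with *Gpr17* the single one at an unadjusted p under 0.05. All 6 tested endothelial markers were negative (median −0.19, or −0.65 without the 3 wells), none at an unadjusted p under 0.05. Mural cell markers (6 tested, median +0.26), fibroblast markers (6 tested, median −0.31), choroid plexus and ependymal markers (8 tested, median −0.03), T cell markers (4 tested, median +0.37) and the single tested blood gene (+0.38) held 0 genes at that p. Without the 3 wells the medians of the first 3 of these lists were +0.02, −0.14 and −0.90. Without the 2 wells mural cell markers were at +0.12, choroid plexus and ependymal markers at −0.41 and the blood gene at +0.22.

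Most genes of cholesterol and fatty acid handling had positive values. Of 20 genes 17 were positive (median +0.17, or +0.11 without the 3 wells), where 8573 of all 16540 genes were, and 5 were higher at an unadjusted p under 0.05, as 2.45% of all genes were: *Insig1*, which holds the sterol-sensing complex in the endoplasmic reticulum (+0.45 ± 0.16, unadjusted p = 0.0096), *Scd2*, a desaturase (+0.60 ± 0.22, unadjusted p = 0.011), *Abca1*, the cholesterol exporter (+0.35 ± 0.14, unadjusted p = 0.025), *Sqle*, squalene epoxidase (+0.33 ± 0.16, unadjusted p = 0.048), and the synthase *Hmgcs1*. *Scd2* lay at 20.3, 29.4 and 45.8 CPM in the lowest, median and highest WT-veh wells and at 33.2, 49.1 and 68.0 CPM in WT-PMX wells. The 3 male WT-PMX wells were above all WT-veh wells and the 3 female ones were not, with log2 fold changes of +0.90 in males and +0.25 in females. The adjusted p of *Scd2* was 0.0040 by edgeR without the filter on low counts. *Dhcr7*, of the last step of synthesis, had the smallest value (−0.06 ± 0.15). In neurons 14 of 19 were positive (median +0.05, or −0.02 without the 3 wells and +0.10 without the 2 wells) and 0 had an unadjusted p under 0.05, with *Scd2* at +0.48 ± 0.28. Astrocyte and oligodendrocyte markers were also positive in these sums (medians +0.53 and +0.29), and their part in the cholesterol values was not tested.

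The 10 genes with the smallest p in all nuclei all had positive values. *Paqr9* (chr9:95559657-95568023), of the progestin and adipoQ receptor family, lay at 6.67, 8.63 and 12.2 CPM in the lowest, median and highest WT-veh wells and at 11.02, 12.3 and 14.3 CPM in WT-PMX wells (+0.48 ± 0.12, unadjusted p = 0.00066). *Cyc1* (chr15:76343523-76346260), cytochrome c1 of respiratory complex III, lay at 2.96 to 5.27 CPM on water and 5.69 to 7.02 CPM on PMX205, with no overlap between groups (+0.67 ± 0.18, unadjusted p = 0.00097). *Klf11* (chr12:24651274-24662789), a zinc finger transcription factor, had 42 transcripts on water and 100 on PMX205 and no overlap between wells (+1.20 ± 0.32, unadjusted p = 0.00097). *Srpk3*, a kinase of splicing factors on the X chromosome, lay at 1.23 to 1.88 CPM and 2.16 to 3.86 CPM, again without overlap (+0.86 ± 0.22, unadjusted p = 0.00068).

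The others were *Pyurf* (+0.82 ± 0.22), *Armc1* (+0.37 ± 0.10), *Gfap*, the antisense gene *Gm15351* (+0.95 ± 0.26), *Mbtps1*, the site-1 protease that releases sterol-regulated transcription factors (+0.35 ± 0.10), and *Atp13a4*, a cation-transporting ATPase (+0.46 ± 0.13). Reads of *Gm15351* and of the gene on the other strand could be told apart only if counting used the strand, which the sources used here do not say. Over all genes, 19 (0.115%) had every WT-PMX well above every WT-veh well and 5 (0.0302%) the reverse, the latter being *Gm2115*, *Gm18760*, *Gm26801*, *Ankle2* and *Pinx1*, named after their values had been seen. With 6 wells against 6, exchangeable wells separate fully in either direction with a probability of 0.00216. Genes of smallest p were chosen on the same values, so their lack of overlap is no further support.

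**Figure D5:**
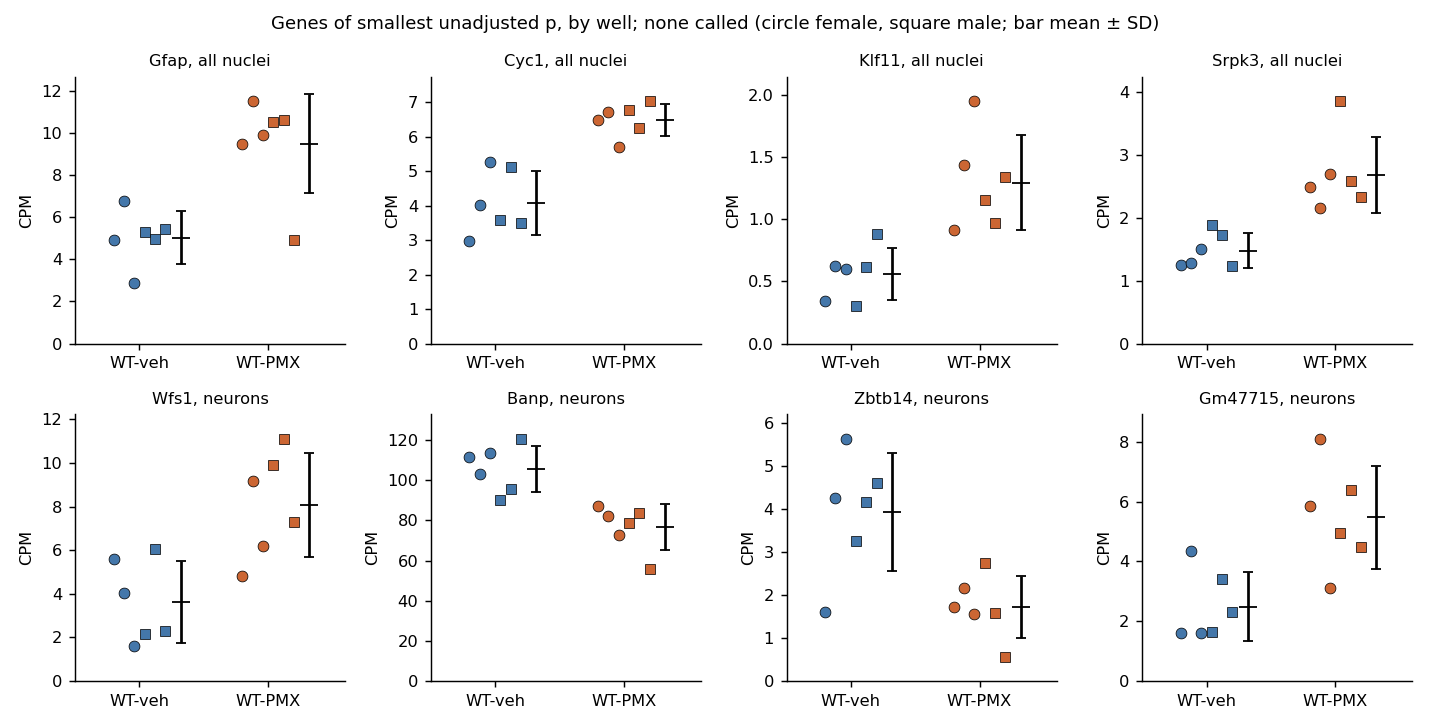
CPM in each WT well of *Gfap*, *Cyc1*, *Klf11* and *Srpk3* in all nuclei and of *Wfs1*, *Banp*, *Zbtb14* and *Gm47715* in neurons (circles females, squares males, bars mean ± SD of 6 wells). *Cyc1*, *Klf11*, *Srpk3* and *Banp* show no overlap between WT-veh and WT-PMX wells, and the other 4 genes do overlap.

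Within neurons the largest of the leading values belonged to *Wfs1* (chr5:36966104-36989205), an endoplasmic reticulum membrane protein that marks CA1 pyramidal cells. It lay at 1.61, 3.16 and 6.06 CPM in the lowest, median and highest WT-veh wells and at 4.83, 8.23 and 11.1 CPM in WT-PMX wells, and 5 of 6 WT-PMX wells were above all WT-veh wells. *Wfs1* rested on 88 and 322 transcripts, raw counts from neuron sums of unequal size (17015731 transcripts in WT-PMX M2, at most 9285667 in a WT-veh well). The log2 fold change was +1.14 ± 0.28 (95% interval 0.57 to 1.72, unadjusted p = 0.00038), and in Arctic mice it was +0.26. Its adjusted p was 0.0485 without the filter on low counts and 0.99994 with it. Of the 8 CA1 markers 7 were positive in neurons (median +0.19, or +0.05 without the 3 wells and +0.30 without the 2 wells), whereas in all nuclei 2 of the same 8 were positive and 6 negative (median −0.11, or −0.01 without the 2 wells). In neurons *Dcn*, decorin, which is also in the fibroblast list, was the other with an unadjusted p under 0.05 (+0.87 ± 0.42, unadjusted p = 0.049). In Arctic neurons the median of these markers was −0.37. The part of depth, which was highest in the neurons of WT-PMX M1 and M2, in the CA1 values was not tested.

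*Banp* (chr8:121949750-122029258), a nuclear matrix protein that binds CpG motifs, went the other way. It lay at 90.2 to 121 CPM in WT-veh neurons and 56.0 to 87.2 CPM in WT-PMX neurons, with no overlap (−0.43 ± 0.12, unadjusted p = 0.0018). *Zbtb14*, a zinc finger repressor, lay at 1.59 to 5.63 CPM and 0.560 to 2.75 CPM (−1.06 ± 0.29, unadjusted p = 0.0013). The remaining genes of the 10 with the smallest p were *Mitd1* (−0.54 ± 0.16), *Plgrkt* (−0.45 ± 0.13), *Stk36* (−0.72 ± 0.22), the mitochondrial ribosomal gene *Mrpl51* (−0.83 ± 0.26), *Tyw3* (+0.68 ± 0.21), *Gm47715* (+0.97 ± 0.26) and the antisense gene *Gm48159* (+1.12 ± 0.35). In neurons 4 genes (0.0314%) had all WT-PMX wells above all WT-veh wells (*Zfp862-ps*, *Dcp1b*, *Cyc1* and *Gm13938*) and 5 (0.0392%) the reverse (*Banp*, *Ccdc137*, *Trpc7*, *Cep76* and *Amz2*), named after their values had been seen. *Cyc1* was thus without overlap in both sums, which share nuclei.

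The nuclei of the neuron rule differed little from all nuclei in neuron markers and more in glial ones. Neuron markers, 4 of which are genes of the rule, summed to 5366 to 5877 CPM in WT-veh neurons and 4832 to 5688 CPM in WT-PMX neurons, against 4855 to 5761 and 4656 to 4998 CPM in all nuclei, and in WT-veh F3 the sum was lower in neurons (5728 CPM) than in all nuclei (5761 CPM). Astrocyte markers summed to 201 to 352 CPM and 186 to 332 CPM there, below the 599 to 823 and 731 to 999 CPM in all nuclei, and interneuron markers to 3060 to 7941 and 2483 to 6261 CPM, above the 1841 to 2394 and 1797 to 2250.3 CPM in all nuclei. The interneuron list holds *Gad1* and *Gad2*, on which the rule selects, so a higher sum is built into it. In WT-PMX F3, the well with the fewest neurons, oligodendrocyte markers were at 966 CPM in neurons and 602 CPM in all nuclei. Microglia markers were highest in WT-PMX F3 (80 neurons), at 259 CPM, and WT-PMX M3 (151 neurons), at 114 CPM. They were at 32.6 to 84.4 CPM in WT-veh wells, of which F1, F3 and M3 had 139, 118 and 103 neurons (5 tested, all positive, median +0.68). In all nuclei WT-PMX F3 and M3 were at 104 and 105 CPM. Endothelial markers were highest in WT-veh M3, at 117 CPM, and WT-veh F3, at 37.0 CPM, and both were above every WT-PMX well (3.24 to 31.0 CPM). Their 4 tested genes had a median of −1.47, or −0.56 without these 2 wells, and *Pecam1*, *Slco1a4* and *Flt1* were lower at an unadjusted p under 0.05, as 1.19% of all genes in neurons were. The 5 tested astrocyte markers had a median of −0.24 in neurons (−0.06 without the 2 wells), where *Gfap* rested on 23 and 25 transcripts (−0.49 ± 0.81).

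Glutamatergic and presynaptic genes were measured precisely and centred slightly below 0. Of 28 glutamate receptor and postsynaptic scaffold genes, 25 were negative and 3 positive in all nuclei (median −0.09), all 28 intervals lay within 1 log2 unit, and 1 gene, the NMDA receptor subunit *Grin2a*, had an unadjusted p under 0.05 (−0.17 ± 0.08, unadjusted p = 0.032). *Grin2a* lay at 3337 to 4179 CPM on water and 2972 to 3621 CPM on PMX205. The metabotropic receptors *Grm5* (−0.21 ± 0.11) and *Grm3*, which astrocytes express most (+0.22 ± 0.12), were the ends of the list. In neurons alone 19 were negative and 9 positive (median −0.07), with *Nrxn3* lowest (−0.21 ± 0.11) and *Grm3* highest (+0.23 ± 0.28). Since CPM values are relative to the other transcripts of a well, glial and synaptic genes are not independent in all nuclei. The part of this in the values was not tested.

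Of 20 presynaptic release genes 16 were negative and 4 positive (median −0.07, or −0.02 without the 2 wells), between *Sv2b*, of synaptic vesicles (−0.20 ± 0.12), and *Vamp2* (+0.19 ± 0.21). *Nsf*, the ATPase that recycles SNARE complexes, had an unadjusted p under 0.05 in all nuclei (−0.16 ± 0.07, unadjusted p = 0.039) and in neurons (−0.16 ± 0.08, unadjusted p = 0.047). GABA synthesis, transport and receptor genes were split 11 to 8 in all nuclei (median +0.04) and 8 to 11 in neurons (median −0.01, or +0.04 without the 3 wells). The synthesis genes *Gad1* and *Gad2* are genes of the neuron rule, so the values of this list in neurons are not independent of the rule. *Gphn*, the scaffold of inhibitory synapses, had an unadjusted p under 0.05 in both sums and in neurons lay at 656 to 863 CPM on water and 683 to 1006 CPM on PMX205 (+0.24 ± 0.10, unadjusted p = 0.028). *Slc32a1*, the vesicular GABA transporter (+0.52 ± 0.35), and *Gabra5* (−0.16 ± 0.10) were the ends of the list. Of 10 tested neuropeptide genes 8 were positive (median +0.18, or +0.07 without the 3 wells), from *Nts* (−0.58 ± 0.53, and −0.84 to −0.12 with single wells left out) to *Vip* (+0.46 ± 0.45, and +0.24 to +0.58).

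Among activity-induced genes, the value of *Arc* depended on 1 well. Of 22 tested, 16 were positive in all nuclei (median +0.14, or −0.01 without the 3 wells and +0.21 without the 2 wells). *Arc*, the synaptic immediate early gene, lay at 2.84 to 6.04 CPM on water and at 1.78 to 18.9 CPM on PMX205, where 4 wells were above and 2 below all WT-veh wells. Its log2 fold change was +0.76 ± 0.49, and −0.10 without WT-PMX M1, the highest well. *Dusp1*, a phosphatase of MAP kinases, had an unadjusted p under 0.05 (+0.63 ± 0.30, unadjusted p = 0.047) and *Jun* the smallest value (−0.17 ± 0.24). In neurons 15 of 18 were positive (median +0.20, or −0.11 without the 3 wells), with *Npas4* highest (+0.88 ± 0.47, and +0.26 without WT-PMX M1).

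The remaining lists held few low p-values. Of 19 circadian clock genes 14 were positive in each sum (medians +0.13 and +0.07, or +0.04 and −0.09 without the 3 wells). In all nuclei the output gene *Dbp* (+0.49 ± 0.23, unadjusted p = 0.042) and the repressor *Bhlhe41* (+0.32 ± 0.13, unadjusted p = 0.025) were highest, and the activator *Arntl* lowest (−0.14 ± 0.10). In neurons *Bhlhe41* was at +0.48 ± 0.23 (unadjusted p = 0.044). Times of perfusion are not given in the sources used here. Of 16 tested glucocorticoid-responsive genes 10 were positive (median +0.14, or +0.04 without the 3 wells), from *Sgk1* (−0.13 ± 0.07) to *Plin4* (+0.87 ± 0.44), with *Mt1* at an unadjusted p under 0.05. Of 15 tested unfolded protein and heat shock genes 10 were positive (median +0.07, or +0.16 without the 3 wells and −0.02 without the 2 wells), from *Ddit3* (−0.29 ± 0.17) to *Dnajb1* (+0.43 ± 0.26). Of 12 nuclear long noncoding RNAs 8 were negative (median −0.06), from *Meg3* (−0.19 ± 0.16) to *Neat1* (+0.35 ± 0.20).

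Mitochondrial transcripts and transcripts linked to ribosomal RNA varied widely between wells. The 6 tested mitochondrial transcripts were positive (median +0.38, or +0.15 without WT-veh F3 and M3) and rested on counts such as 60 and 111 for *mt-Nd2* (+0.79 ± 0.43). In neurons both tested mitochondrial transcripts were negative (−0.12 and −0.37). *Lars2*, a mitochondrial tRNA ligase whose locus can collect ribosomal RNA reads, lay at 252 to 578 CPM on water and at 208 to 1169 CPM on PMX205, with 3 WT-PMX wells above and 2 below all WT-veh wells (+0.90 ± 0.40, unadjusted p = 0.035, adjusted p = 1.02e-07 without the filter on low counts). Without WT-PMX M2 the value of *Lars2* was +0.32. *Cmss1*, of the same list, was at −0.91 ± 0.62, with 3631 CPM in WT-veh M3, an adjusted p of 5.79e-04 without the filter and a value of +0.02 without that well.

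Effects were also compared between sexes and genotypes. The difference between the effects in male and female WT mice was called for 0 of 16540 genes in all nuclei (0%) and 0 of 12744 in neurons (0%), by edgeR. At an unadjusted p under 0.05, the effect was higher in males than in females for 338 genes and lower for 461 in all nuclei, and 323 and 282 in neurons. The difference between the effects in Arctic and WT mice was likewise called for 0 genes in all nuclei (0%) and 0 in neurons (0%), with 151 and 236 genes at an unadjusted p under 0.05 in all nuclei and 148 and 189 in neurons. *Gfap* (+0.89 in WT, +0.03 in Arctic mice) had an unadjusted p of 0.014 for that difference and an adjusted p of 0.99994. *Klf11* (+1.20 and −0.44) had an unadjusted p of 0.0011 for it and *Paqr9* (+0.48 and −0.14) one of 0.0016, and neither passed after adjustment. *Gfap*, *Klf11* and *Paqr9* were named for their small p in the WT comparison. The WT effect is part of this difference, so its small p-values for these genes are no independent support.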

How the data were processed

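RNA was measured in nuclei of frozen hippocampal tissue by split-pool barcoding (Parse Evercode). The authors made the deposited transcript counts per barcode and gene with split-pipe, the pipeline of Parse, against mm10, and the submitters' processing notes name bcl2fastq, versions not given in the sources used here. The deposited counts are not normalized and not filtered: the 7 sublibraries list 1516119 barcodes. Each sublibrary mixes all 48 first-round wells, so counts were summed over them per well, the replicate, with genotype, treatment and sex from the authors' sample sheet. Labels show 1 mouse per nuclear well, and all wells were barcoded in 1 run. Water wells were in rows A and B of the first-round plate and PMX205 wells in rows C and D, with 1 sex per row. Treatment and plate row cannot be told apart, and p-values rest on the spread between mice within groups. The reporting summary says that a WT sample with Arctic expression was left out but names no well, so all were kept.

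Filters were those of the study's methods (stated in the report). The study removed doublets by Scrublet, and here nuclei with a score above 0.25 (scanpy 1.11.5, expected rate 0.06) were removed only as an alternative. The study's own test takes cells as replicates and was not used. Genes were tested on these sums with edgeR 4.0.16 (R 4.3.3; TMM, filterByExpr by group, glmQLFit, glmQLFTest) over all 24 single-nucleus wells with group and sex, adjusted by Benjamini-Hochberg at 0.05. Values per well were compared by exact two-sided permutation of 924 divisions (scipy 1.17.1). Known changes were planted in simulated counts to check the scripts, and no statement here rests on that step. CPM used TMM library sizes.

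Named genes are, in each sum, the 10 with the smallest unadjusted p, any called, C5a receptor and main complement genes, the ends of each pathway list, and sex-linked genes and *App* as label checks. One gene that this rule names is not reported here. Members and lists were chosen with earlier results of these data known. Coordinates are GENCODE vM21 (GRCm38). Alternatives were RLE size factors, DESeq2 1.42.0, no filter, WT wells alone, no sex term, neuron share as covariate, a replicate block, wells or sublibraries left out, each sex alone, doublets removed, stricter filters, removal of ribosomal RNA-linked transcripts and other neuron rules. The thinned shares, the astrocyte-marker nuclei and the fits without WT-PMX M1, M2 and WT-veh F2 were added after seeing the data.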

Additional observations from a re-analysis of the deposited data

Results flagged for a closer look

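In groups of 6 wells, the gap of the highest or lowest well to its neighbour was compared with the range of the group. Of 158 groups checked 19 exceeded the 95% limit of Dixon's test, and chance alone flags about 1 in 20 groups. None was explained further.

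Among values of whole wells, WT-PMX M2 stood apart with 3356 kept nuclei and 7.39% of nuclei scored as doublets. In single genes of all nuclei, *Gfap* was lowest at 4.91 CPM in WT-PMX M3, while the other 5 WT-PMX wells were above all WT-veh wells. *C3* was highest at 0.843 CPM in WT-PMX M2 and *Srpk3* at 3.86 CPM in WT-PMX M1. *Pyurf* was lowest at 0.351 CPM in WT-veh M3. Within astrocyte-marker nuclei, *C4b* was highest at 449 CPM in WT-PMX M1.

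Among summed markers of all nuclei, OPC markers were lowest on water at 174 CPM in F3 and highest on PMX205 at 361 CPM in M3. Mural cell markers at 31.6 CPM and fibroblast markers at 59.0 CPM were both highest on water in M1, and dentate granule neuron markers were highest on PMX205 at 2157 CPM in M3.

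In neurons, *Tyw3* was highest on water at 7.24 CPM in F3, a well of 118 neurons, and *Stk36* highest on PMX205 at 4.14 CPM in F1. Endothelial markers were highest on water at 117 CPM in M3, a well of 103 neurons. On PMX205, microglia markers at 259 CPM and endothelial markers at 31.0 CPM were highest in F3, the well with the fewest neurons (80), astrocyte markers at 332 CPM in M2 and mural cell markers at 11.3 CPM in F2.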

How the results depend on the processing

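No filter on low counts moved every count of calls: 22 genes for PMX205 against water in all nuclei (14 higher, 8 lower), 22 in neurons, 8 (2 higher, 6 lower) for the difference between Arctic and WT effects in all nuclei and 32 (22 higher, 10 lower) in neurons. The genes with a smaller adjusted p there include *Gfap*, *Scd2*, *C4b*, *Aqp4*, *Apoe*, *Clu*, *Lars2*, *Cmss1* and *Rn7sk* in all nuclei and *Wfs1* in neurons. For *Gfap* the fold change was close (+0.90 and +0.89) and the SE was 0.15 in place of 0.25, and the cause was not tested. Male wells alone gave 1 gene in the neuron interaction (*Atp10b*, lower). All other alternatives left the counts at 0. The fit of the 12 WT wells cannot give the interaction. Of the results for named genes, 2024 kept direction and side of the threshold over alternatives other than left-out wells, 50 reversed and 8 passed, and over left-out wells 1193 kept both and 31 reversed.

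WT wells with the same replicate number stood in the same column of the barcoding plate, and the sources do not say what else the number shares. In all nuclei the deviations of same-numbered WT wells correlated at 0.131 to 0.358 in the 3 male pairs and at −0.158 to −0.0283 in the 3 female pairs (median of all 6 pairs 0.0513, against 0.0605 for different numbers). In neurons all 6 were positive and 3 were over 0.1 (0.00884 to 0.215, median 0.0912, against −0.0705). Not every pair was over 0.1 in either sum, so the numbers were not taken to pair the wells. With the replicate block 0 genes were called in any of the 4 comparisons (428 higher and 237 lower at an unadjusted p under 0.05 in all nuclei, 209 and 162 in neurons), and the block changed no call.

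The difference in median transcripts per nucleus (−216) was +339 under the stricter filter and +253 as a difference of medians. With single wells left out it ran from −531.9 to 322.4, that of kept nuclei from −301.6 to 112.7, that of the neuron share from −0.099 to 3.82 percentage points and that of the mitochondrial share from −0.0021 to 0.0037 percentage points.

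With the filter on low counts no named gene was called, and 58 of their 102 log2 fold changes moved by over 1.5 times with at least 1 well left out, of which 16 reversed. Among those, single left-out wells moved *C3ar1* from −0.31 to 0.26, *Arc* from −0.10 to 0.97, *Jun* from −0.28 to 0.022, *P2ry13* from −0.39 to 0.23, *Cp* from −0.28 to 0.094, *Dhcr7* from −0.19 to 0.020, *mt-Nd4* from −0.012 to 0.46 and *Cmss1* from −1.24 to 0.019 in all nuclei. In neurons they moved *Rorb* from −0.53 to 0.12, *Nts* from −0.96 to 0.21, *Cd44* from −1.23 to 0.30, *Gfap* from −1.03 to 0.043, *Cd109* from −0.16 to 0.35, *Amigo2* from −0.80 to 0.028, *Hspa8* from −0.036 to 0.54 and *mt-Cytb* from −0.40 to 0.13.

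Female wells alone reversed *C3ar1* (0.51), *C3* (−0.031), *C1qc* (−0.60), *Jun* (0.25), *Vamp2* (−0.055), *Cp* (0.029), *Ddit3* (0.054), *mt-Nd4* (−0.56) and *Meg3* (0.0090) in all nuclei, and *C4b* (−0.67), *Gnai2* (0.24), *Rorb* (0.068), *Grm3* (−0.17), *Ctsd* (−0.18), *Cd9* (0.0060), *Cd109* (−0.47) and *Scd2* (−0.13) in neurons. Male wells alone reversed *P2ry13* (0.60) and *Dhcr7* (0.18) in all nuclei, and *Csmd1* (0.054), *Gabra5* (0.0035), *Cd44* (0.82), *Amigo2* (0.017), *mt-Cytb* (0.050) and *mt-Co1* (0.15) in neurons. Leaving out WT-veh F3 and M3 reversed *mt-Nd4* (−0.19) and *Cmss1* (0.070) in all nuclei, and *Gnai2* (0.076), *Cd44* (0.072), *Cd109* (−0.0016), *mt-Cytb* (0.089) and *Cmss1* (0.037) in neurons. Leaving out WT-PMX M1, M2 and WT-veh F2 reversed *Arc* (−0.0037), *Vamp2* (−0.10) and *mt-Nd4* (−0.043) in all nuclei, and *Cd55* (0.075), *Ctsd* (−0.26) and *Cd109* (−0.60) in neurons.

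Doublet removal reversed *C3ar1* (0.029) in all nuclei, and *Rorb* (0.0012) in neurons. Single left-out sublibraries reversed *C3ar1* in all nuclei (0.14, 0.031, 0.010 and 0.0077), *Rorb* in neurons (0.11 and 0.065) and *Cd44* in neurons (0.071). The neuron rule with 5 transcripts reversed *Gnai2* (0.064) and *Sv2b* (0.078) in neurons, and the neuron share as covariate *mt-Nd4* (−0.083) in all nuclei. The causes were not tested. *C5ar1* gave 14 transcripts and was too low to be tested.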
